A study of Mus musculus with 4 samples.

Results

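The AP-1 and Egr immediate-early genes Fos, Fosb, Jun, Junb, Jund, Egr1, Klf4, Klf6, Ier2 and Btg2 were followed in leukemic cells with and without overexpression of Suv39h1, the H3K9 methyltransferase gene. These 10 genes, of the 23552 genes in the expression table, were chosen from their measured values in these same libraries, so their differences between groups and their spread within groups are given as a description, and nothing is rested on a test of them. RNA-seq was performed on c-Kit+ cells enriched from the bone marrow of moribund C57BL/6 mice (C57BL/6J in the methods) with acute myeloid leukemia (AML) driven by the MLL-AF9 fusion, and the methods give the mice as 8-week-old females. The control group, control-eGFP overexpression, had 2 libraries (control replicates 3 and 4), and the Suv39h1-eGFP overexpression group, SUV-OE, had 2 libraries (SUV-OE replicates 2 and 3), all of RNA-seq batch 2. Both groups carried MLL-AF9 and an eGFP vector delivered by lentivirus, and the leukemic cells had been passaged through sub-lethally irradiated recipients, whose own marrow cells can remain in a c-Kit enrichment. The labels do not say whether the libraries of a group came from separate mice, so any p-value measures only the spread between these libraries.

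Immediate-early genes are transcribed within minutes of a growth factor, cytokine or stress signal, without new protein synthesis, through factors already present in the nucleus such as SRF with its TCF partners and CREB. Fos and Jun proteins pair as the AP-1 transcription factor, Egr1 is a zinc finger factor of the same early wave, and dual-specificity phosphatases and mRNA decay factors induced alongside shut the response down. In myeloid cells these genes follow cytokine signalling and are also known to rise during the handling of tissue and cells.

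The sequences just upstream of the start sites are shown because regulation of these genes has classically been mapped there. Of the 10 genes, 8 had an entry in the RefSeq promoter table (GRCm38.p6, the same build as mm10), and Egr1 and Ier2 had none. The RefSeq start of Jund lay 1210 bases from the GENCODE M21 start, so its window was not used, which left 7 windows of 180 bases. The capitals mark TGACG, the core of the cAMP response element, or TGACATCA, the form of the AP-1/ATF site known from the Jun promoter. The last bases of the Fosb and Klf6 windows fall in the first exon of GENCODE M21.
Fos, chr12:85473710-85473889, plus strand: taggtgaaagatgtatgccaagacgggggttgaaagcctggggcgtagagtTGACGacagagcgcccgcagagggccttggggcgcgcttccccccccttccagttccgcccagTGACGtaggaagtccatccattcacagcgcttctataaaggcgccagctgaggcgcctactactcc
Fosb, chr7:19310046-19310225, minus strand: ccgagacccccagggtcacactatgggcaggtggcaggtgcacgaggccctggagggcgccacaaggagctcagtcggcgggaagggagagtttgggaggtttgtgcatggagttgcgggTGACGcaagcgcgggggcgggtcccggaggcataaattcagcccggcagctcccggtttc
Jun, chr4:95052223-95052402, minus strand: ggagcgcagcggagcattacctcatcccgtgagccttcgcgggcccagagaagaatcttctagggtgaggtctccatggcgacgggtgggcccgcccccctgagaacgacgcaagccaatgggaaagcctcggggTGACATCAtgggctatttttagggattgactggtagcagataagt
Junb, chr8:84978749-84978928, minus strand: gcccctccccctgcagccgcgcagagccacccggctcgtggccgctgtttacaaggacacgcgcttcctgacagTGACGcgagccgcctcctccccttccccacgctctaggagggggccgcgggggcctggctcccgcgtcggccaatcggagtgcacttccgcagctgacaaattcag
Klf6, chr13:5861309-5861488, plus strand: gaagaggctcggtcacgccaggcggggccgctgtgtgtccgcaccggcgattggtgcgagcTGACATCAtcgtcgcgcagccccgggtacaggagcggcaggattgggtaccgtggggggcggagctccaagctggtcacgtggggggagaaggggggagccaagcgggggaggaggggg
Btg2, chr1:134079156-134079335, minus strand: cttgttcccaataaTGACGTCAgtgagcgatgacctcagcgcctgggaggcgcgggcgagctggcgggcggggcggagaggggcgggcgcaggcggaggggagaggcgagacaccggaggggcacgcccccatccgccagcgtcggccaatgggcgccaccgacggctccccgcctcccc

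All windows read 5′ to 3′ towards the start site, and motifs were searched on both strands. TGACG was found in 4 of the 7 windows (Fos, Fosb, Junb and Btg2) and in 14.8% of the same windows of all 32851 RefSeq promoters. In Fos it began 129 and 66 bases upstream of the start, and in Btg2 it was part of the full palindrome TGACGTCA 166 bases upstream, which 1.45% of all windows hold and which contains TGACG on both strands. TGACATCA, which was chosen because the Jun promoter is known to hold it, stood 45 bases upstream in Jun, a match fixed by that choice. It was also found in Klf6, 119 bases upstream, and 2.51% of all windows hold it. TATAAA stood 33 bases upstream in Fos and in none of the other 6 windows, against 8.94% of all windows. Neither the AP-1 site TGACTCA nor a CArG box, the SRF binding element, was found in any of the 7 windows, and 3.33% and 1.09% of all windows hold them. The Klf4 window, not printed, held none of these motifs. A match describes letters only, and no match says only that these letters are not in this window.

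Suv39h1 itself was at 12.4 FPKM in both control libraries and at 75.3 and 81.2 in the SUV-OE libraries (replicates 2 and 3), a log2 fold change of 2.56 (SE 0.11, limma adjusted p = 0.00866), as the labels of the libraries say. With 1 library left out the fold change was 2.51 to 2.62 and the adjusted p from limma 0.0975 to 0.186, and without a filter on low values that p was 0.109. FPKM is the number of sequenced fragments scaled to exon length and library size, so that levels can be compared between genes. The reads recovered from the FPKM steps summed to 20085719 to 23561089 per library, above the library size by which those steps are scaled. By that size, 3 reads on 1 kb of exon were worth 0.154 to 0.178 FPKM. On log2(FPKM + 1) over the 13736 tested genes, those whose FPKM averaged 0.5 or more,, the libraries correlated at 0.97 within control, 0.985 within SUV-OE and 0.953 to 0.966 between groups. Differences are given on the log2(FPKM + 1) scale, SUV-OE minus control or library minus library, and that scale understates the differences of genes at a few FPKM, such as Klf4. The c-Kit+ label was checked against leukemic progenitor markers: the summed FPKM of Kit, Cd34, Fcgr3, Mpo, Ctsg, Elane, Prtn3, Hoxa9 and Meis1 was 5160, 5830, 3750 and 4550 in control replicates 3 and 4 and SUV-OE replicates 2 and 3. That sum is carried by granule genes such as Elane and Ctsg, of which Ctsg was at 2240 and 2790 FPKM in control and at 1230 and 1350 in SUV-OE. Kit, the gene of the label, was detected in every library, at 20.4 and 19.2 FPKM in control and at 28.6 and 25.4 in SUV-OE, higher in both SUV-OE libraries.

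All 10 genes passed the filter on low values, and in all 10 control replicate 3 was the highest library, as it was for 31.2% of all tested genes. Across the 10 genes the difference between the control libraries had a median of 2.45, against a median absolute difference of 0.22 for all tested genes. In SUV-OE the difference between replicate 3 and replicate 2 had a median of 1.15, against a median absolute difference of 0.13. The difference between the groups had a median of -1.22, against -0.02 for all tested genes. In all 10 the control libraries differed by more than the groups did, as they did in 6992 of the 13736 tested genes.

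**Figure D1:**
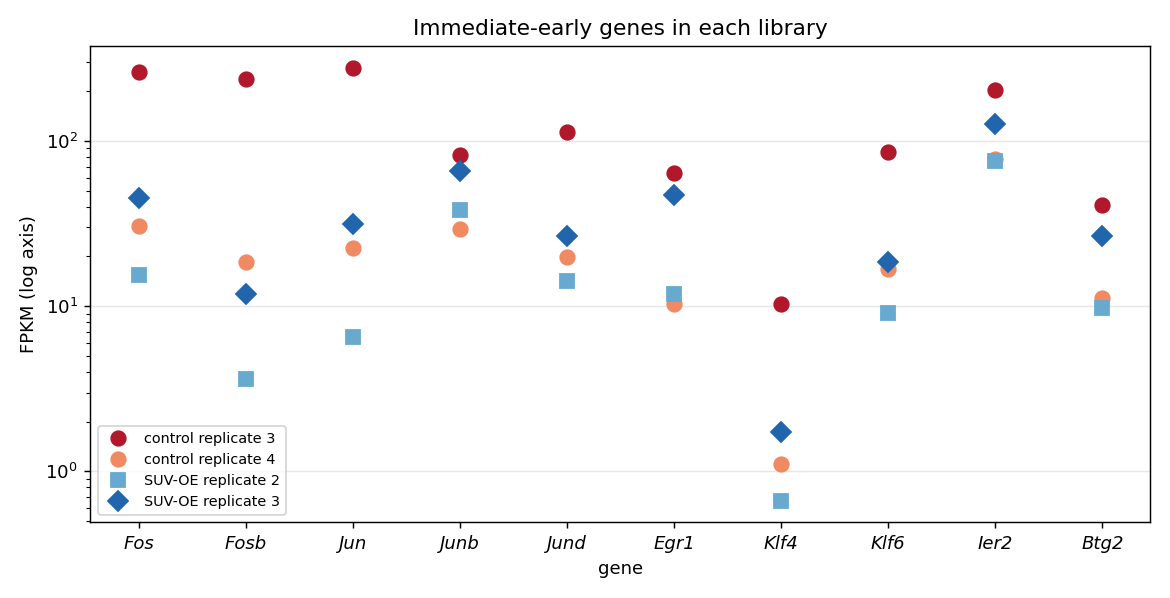
FPKM (log axis) of the 10 genes in each library, with control in red tones and SUV-OE in blue tones. Control replicate 3 is the highest library for all 10 genes and SUV-OE replicate 2 is the lowest for 8, against 4286 and 3539 of all 13736 tested genes. Fosb is the only gene whose groups do not overlap.

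Fos (ENSMUSG00000021250, chr12:85473890-85477273, plus strand), the partner of Jun proteins in AP-1, stood at 260 and 30.5 FPKM in control replicates 3 and 4 and at 15.4 and 45.0 in SUV-OE replicates 2 and 3. Control replicate 3 was far above the rest and SUV-OE replicate 3 lay above control replicate 4, so the groups overlapped. The control libraries differed 8.52-fold and the SUV-OE libraries 2.93-fold. The group difference was -1.72 with all libraries and -0.20 without control replicate 3. The 4 FPKM values rest on 11898, 1211, 641 and 1883 recovered reads.

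Fosb (ENSMUSG00000003545, chr7:19302696-19310051, minus strand), the second Fos gene of the set, was at 238 and 18.6 FPKM in control replicates 3 and 4 and at 3.60 and 11.9 in SUV-OE replicates 2 and 3. Both SUV-OE libraries were below both control libraries, which held for no other gene of the 10 and for 28.4% of all tested genes. The highest library was 66.1-fold above the lowest, the widest range of the set, and the control libraries alone differed 12.8-fold. The group difference was -3.15, and -1.34 without control replicate 3.

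Jun (ENSMUSG00000052684, chr4:95049034-95052222, minus strand), an intronless gene and the main transactivating partner in AP-1, was at 278 and 22.4 FPKM in control and at 6.49 and 31.4 in SUV-OE. SUV-OE replicate 3 lay above control replicate 4, and the SUV-OE libraries differed 4.84-fold, the widest spread within SUV-OE in the set. Between the groups it differed by -2.38, and by -0.59 without control replicate 3. An antisense gene, Junos, overlaps Jun, and the library kit does not mark strand, but Junos was listed at 0.230 to 0.451 FPKM.

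Junb (ENSMUSG00000052837, chr8:84974484-84978718, minus strand), which can act as a weaker or opposing partner to Jun, was at 81.7 and 29.1 FPKM in control and at 38.2 and 65.4 in SUV-OE. Both SUV-OE values lay between the control values, with a group difference of 0.03, and 0.76 without control replicate 3. Junb overlaps Prdx2 on the opposite strand (20.6 to 31.4 FPKM), so reads in the overlap cannot be told apart.

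Jund (ENSMUSG00000071076, chr8:70698949-70700616, plus strand), the Jun gene that most cells express constitutively, was at 114 and 19.7 FPKM in control and at 14.2 and 26.7 in SUV-OE. Control replicate 3 was 5.82-fold above control replicate 4, with SUV-OE values on either side of the latter. It differed between the groups by -1.25, and by -0.01 without control replicate 3. Jund overlaps the antisense gene Gm11175, which was not used here.

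As a family, the Jun genes summed to 474 and 71.2 FPKM in control and to 58.8 and 124 in SUV-OE. Their make-up differed between libraries too. In the control libraries Jun held 58.6% and 31.5% of the family sum, against 11% and 25.4% in SUV-OE. Junb held 17.2% and 40.9% in the control libraries, against 64.9% and 52.9% in SUV-OE. Jund held between 21.6% and 27.6% in every library. The ratio of Junb to Jun, which does not depend on how a library is scaled, was 0.294 and 1.30 in the control libraries but 5.88 and 2.08 in SUV-OE. The groups did not overlap, but this ratio was picked from many possible pairs of genes. How many other pairs separate the groups was not counted, and Junb carries the overlap with Prdx2.

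The Fos genes Fos, Fosb, Fosl1 and Fosl2 summed to 504 and 53.8 FPKM in control and to 22.9 and 62.0 in SUV-OE. Fosb made up 47.2% and 34.5% of that sum in the control libraries but 15.7% and 19.2% in SUV-OE. The ratio of Fos to Fosb was 1.09 and 1.64 in the control libraries but 4.26 and 3.79 in SUV-OE, again without overlap. Both ratios were singled out from many possible ones after their values were seen and were not tested. With 2 libraries against 2, a two-sided permutation p cannot fall below 0.333.

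**Figure D2:**
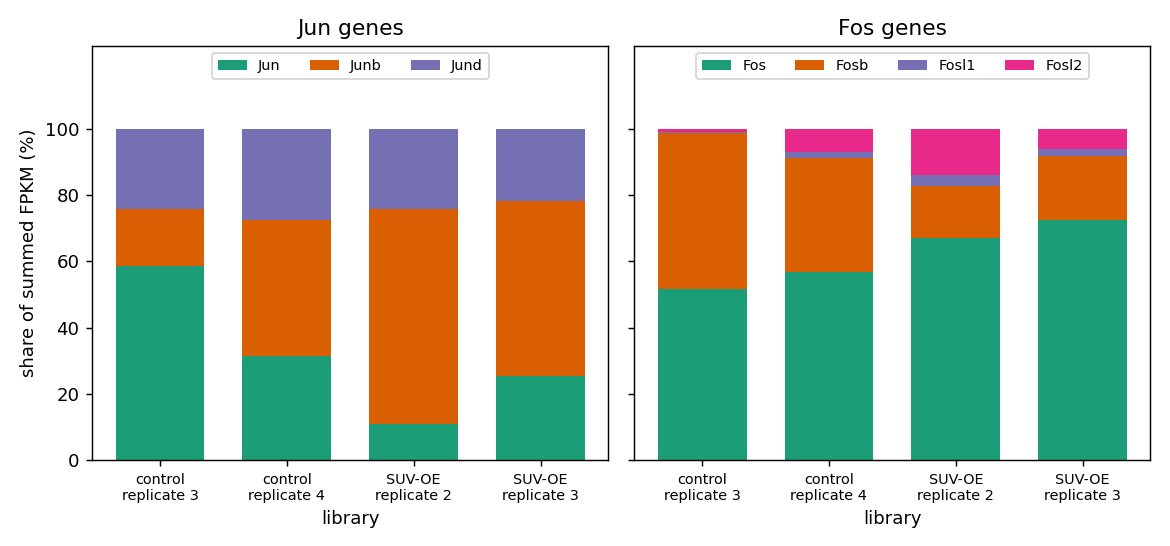
Share of the summed FPKM of the Jun genes (left) and the Fos genes (right) held by each gene, 1 bar per library. Junb takes 64.9% and 52.9% of the Jun sum in the SUV-OE libraries against 17.2% and 40.9% in control, and Fosb takes 15.7% and 19.2% of the Fos sum against 47.2% and 34.5%.

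Egr1 (ENSMUSG00000038418, chr18:34859823-34864984, plus strand), the zinc finger factor whose targets include the NAB corepressors, was at 64.1 and 10.3 FPKM in control and at 11.9 and 47.1 in SUV-OE. Each group had 1 high and 1 low library, and control replicate 4 was the lowest of all. The group difference was -0.12 with all libraries and 1.14 without control replicate 3, the largest positive value of the set. Fos was 4.06 and 2.96 times as high as Egr1 in the control libraries but 1.29 and 0.956 times as high in SUV-OE, a ratio also singled out after its values were seen.

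Klf4 (ENSMUSG00000003032, chr4:55527143-55532466, minus strand), a Krüppel-like factor linked to monocyte differentiation, had the lowest FPKM of the 10 genes in every library, 10.3 and 1.11 in the control libraries and 0.665 and 1.72 in SUV-OE. These values rest on 608, 57, 36 and 93 reads, and their exact 95% Poisson intervals, which cover counting error only, were 9.45 to 11.1, 0.839 to 1.44, 0.466 to 0.921 and 1.38 to 2.10. The interval of control replicate 3 lay far above the other intervals, while that of control replicate 4 overlapped both SUV-OE intervals. Klf4 differed between the groups by -1.20, and by 0.01 without control replicate 3.

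Klf6 (ENSMUSG00000000078, chr13:5861482-5870394, plus strand), a more widely expressed Krüppel-like factor, was at 85.6 and 16.8 FPKM in control and at 9.13 and 18.4 in SUV-OE. Control replicate 4 fell between the SUV-OE libraries. The group difference was -1.49, and -0.34 without control replicate 3.

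Ier2 (ENSMUSG00000053560, chr8:84661331-84662852, minus strand), an intronless gene of the immediate early response, was the least variable of the set, at 204 and 78.1 FPKM in control and at 75.2 and 126 in SUV-OE. Its highest library was 2.72-fold above its lowest, and control replicate 4 and SUV-OE replicate 2 were nearly equal. Between the groups Ier2 differed by -0.37, and by 0.32 without control replicate 3.

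Btg2 (ENSMUSG00000020423, chr1:134075170-134079120, minus strand), an antiproliferative gene induced by p53 as well as by growth signals, was at 41.1 and 11.2 FPKM in control and at 9.74 and 26.5 in SUV-OE. SUV-OE replicate 3 was 2.72-fold above SUV-OE replicate 2 and lay between the control libraries. Btg2 differed by -0.40 between the groups, and by 0.49 without control replicate 3.

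Across the set, 9 of the 10 genes were lower and 1 (Junb) was higher in SUV-OE by the group difference. Of all 13736 tested genes, 7278 were lower and 6458 higher. Without control replicate 3 the median difference was 0.00, with 5 genes lower and 5 higher and a range from -1.34 (Fosb) to 1.14 (Egr1), and without control replicate 4 it was -2.45, with all 10 lower. SUV-OE replicate 3 was above control replicate 4 in 9 of the 10 genes, all but Fosb, against 6511 of all 13736 tested genes. SUV-OE replicate 2 was above control replicate 4 only in Junb and Egr1, against 6588 of all tested genes. By limma, 0 of the 10 genes reached the thresholds for a differentially expressed gene (DEG), an adjusted p under 0.05 with a log2 fold change of 1 or more in either direction, 0 had an unadjusted p under 0.05, and 0 were called by limma-voom on the recovered reads. In the same comparison 20.7% of all tested genes had an unadjusted p under 0.05 and 1.22% were DEGs, 0.815% higher and 0.408% lower in SUV-OE, and limma-voom called 4.68% of its genes. As the 10 genes were chosen on this contrast, nothing is read from their counts. Both SUV-OE libraries were above both control libraries in none of the 10 genes, against 25.4% of all tested genes.

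**Figure D3:**
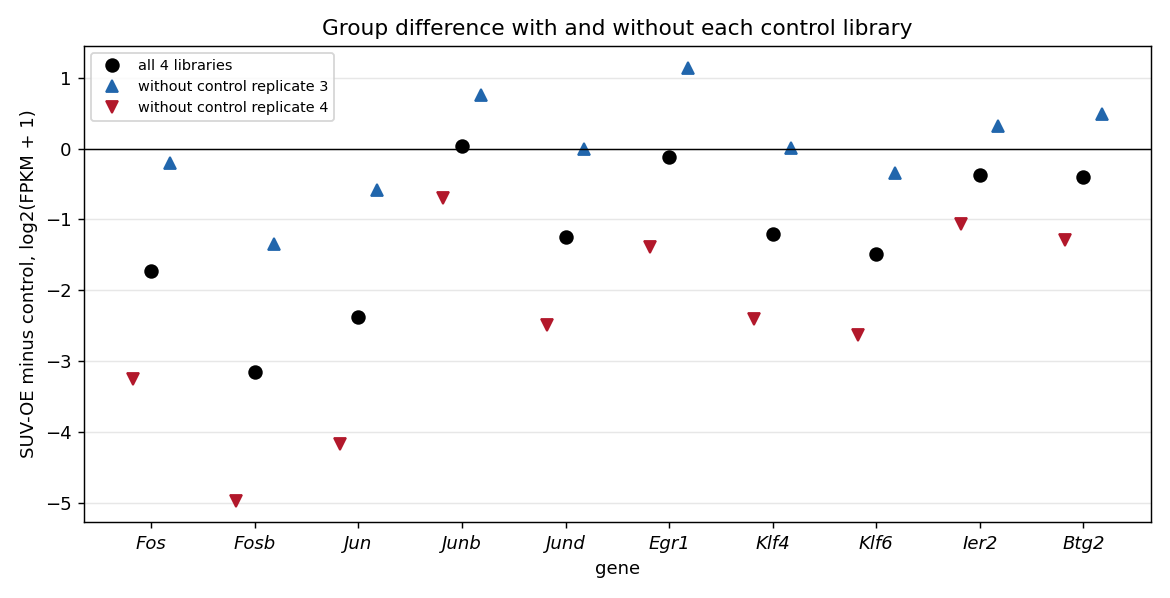
Group difference of each gene, SUV-OE minus control on log2(FPKM + 1), with all 4 libraries (black), without control replicate 3 (blue) and without control replicate 4 (red). The blue points run from -1.34 to 1.14 around 0, and all red points lie below 0.

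The spread within groups was shared by the genes. Control replicate 3 was at least 1 above control replicate 4, on the log2(FPKM + 1) scale, in all 10, against 1.15% of all tested genes, and SUV-OE replicate 3 was at least 1 above SUV-OE replicate 2 in 5 (Fos, Fosb, Jun, Egr1 and Btg2), against 1.22%. In all 10 genes control replicate 3 exceeded replicate 4 and SUV-OE replicate 3 exceeded replicate 2, which held for 20.4% of all tested genes. The order control replicate 3, SUV-OE replicate 3, control replicate 4, SUV-OE replicate 2 was found in 7 of the 10, all but Fosb, Junb and Egr1, against 2.6%. Ranked by the absolute difference between the control libraries, Fosb was 4, Jun 6 and Fos 12 among the 13736 tested genes, and Ier2, the last of the set, was 279. Within SUV-OE, Jun ranked 14 and Egr1 23, and Klf4 ranked 514. Since the genes were chosen on these values, the counts describe the set and nothing is read from them against the background. The mean log2 level of the 10 genes, centred per gene, was 1.83 and -0.63 in control replicates 3 and 4, and -1.22 and 0.02 in SUV-OE replicates 2 and 3.

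**Figure D4:**
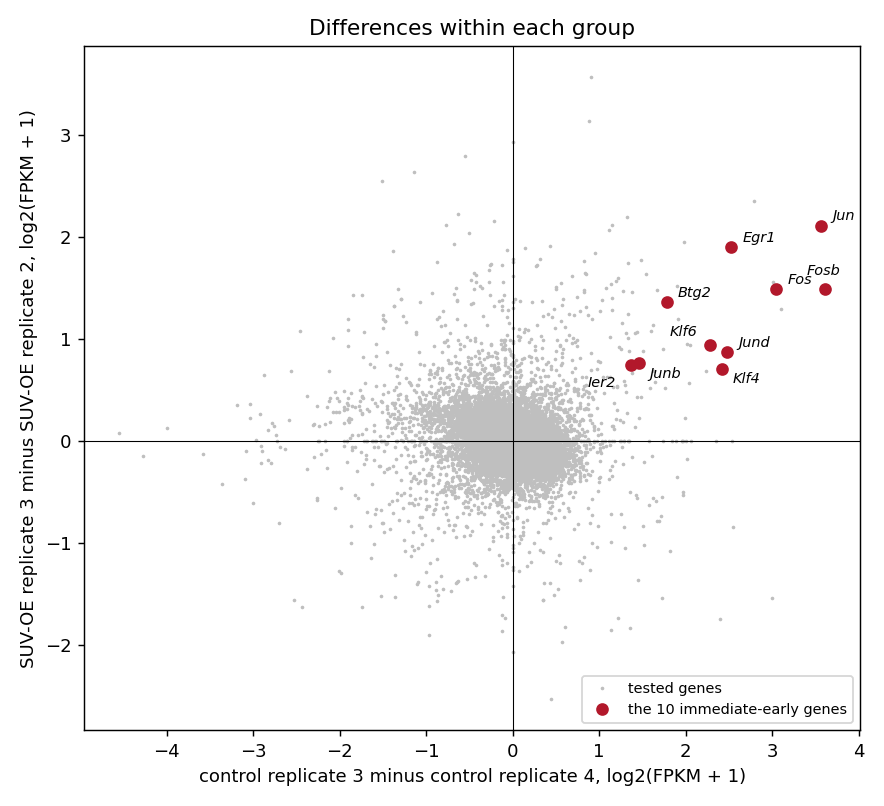
Difference between the control libraries (x axis) and between the SUV-OE libraries (y axis) on log2(FPKM + 1) for the 13736 tested genes (grey) and the 10 immediate-early genes (red). All 10 lie in the upper right, from 1.37 (Ier2) to 3.61 (Fosb) on the x axis and from 0.71 (Klf4) to 2.11 (Jun) on the y axis.

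Other genes were picked for a profile like that of the set, so that they share its order of libraries is built in. Among the 557 genes that averaged 5 FPKM or more and had a range of at least 1, the 8 with the highest Pearson r to the mean of the set over the 4 libraries, a measure of likeness given without a test, were Ftl1-ps1, Gm24991, Snord49a, Spata5l1, Rgs2, Zfp36, Snord110 and Ppp1r15a, with r from 0.9747 to 0.9952. Ftl1-ps1 is a ferritin pseudogene, whose reads may be shared with its parent gene. Gm24991 was at 11.9 and 4.39 FPKM in control and at 2.61 and 5.73 in SUV-OE. Snord49a was at 41.4 and 20.6 FPKM in control and at 16.4 and 27.3 in SUV-OE. The next 3 genes described had a lower r than these. Zfp36, an mRNA decay factor, was at 83.6 and 19.9 FPKM in control and at 19.6 and 38.8 in SUV-OE. Ppp1r15a, a stress-induced phosphatase subunit, was at 21.6 and 6.47 FPKM in control and at 5.27 and 12.2 in SUV-OE. Rgs2, a regulator of G protein signalling, was at 67.8 and 39.8 FPKM in control and at 29.1 and 40.3 in SUV-OE.

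The wider pathway was followed in 9 lists written from general knowledge, which name 134 genes of the table, 117 of them tested. By limma 0 of the 117 were DEGs, against 1.22% of all tested genes. The unadjusted p from limma was under 0.05 in 14 (12.0%), against 20.7% of all tested genes. By limma-voom 6 of the 117 were called, against 516 of the 12630 tested genes it covered. Of the 117, 51 (43.6%) were higher in control replicate 3 than in replicate 4 and in SUV-OE replicate 3 than in replicate 2. The share over all tested genes was 20.4%.

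Of the other immediate-early genes, 31 of 39 were tested, 22 were lower and 9 higher in SUV-OE, with a median of -0.17, and 24 of the 31 (77.4%) followed the order within both groups. Without control replicate 3 the median was 0.27, with 8 lower and 23 higher, and without control replicate 4 it was -0.60, with 25 lower. Dusp1, a phosphatase that switches off MAP kinases, was at 311 and 35.2 FPKM in control and at 10.4 and 26.9 in SUV-OE (log2 fold change -2.58, SE 1.09, limma adjusted p = 0.274). As with Fosb and 28.4% of all tested genes, both SUV-OE values of Dusp1 were below both control values. Its difference was -1.02 without control replicate 3 and -4.13 without control replicate 4. Rhob, a small GTPase gene, was at 452 and 109 FPKM in control and at 120 and 178 in SUV-OE, and 9 genes of this list, Rhob and Dusp1 among them, were at least 1 higher in control replicate 3 than in replicate 4. Cd69, an early activation marker of leukocytes, was at 17.4 and 9.25 FPKM in control and at 3.32 and 9.72 in SUV-OE (-1.01, limma adjusted p = 0.342, and -0.36 without SUV-OE replicate 2).

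Among the MAP kinase brakes, 10 of 14 were tested, with 4 lower and 6 higher in SUV-OE and a median of 0.15, which was 0.55 without control replicate 3 and -0.07 without control replicate 4. Dusp6, a phosphatase specific for ERK and also on the list of other immediate-early genes, was at 5.02 and 2.69 FPKM in control and at 10.6 and 15.3 in SUV-OE (log2 fold change 1.54, SE 0.30, limma adjusted p = 0.0951, and 1.77 by limma-voom, adjusted p = 0.0264). Spred2, an inhibitor of the Ras to ERK pathway, was at 4.90 and 3.76 FPKM in control and at 10.7 and 8.23 in SUV-OE (0.97, limma adjusted p = 0.0930, and 1.12 by limma-voom, adjusted p = 0.0285). In both genes the SUV-OE libraries lay above the control libraries, as they did in 25.4% of all tested genes. By limma-voom 3 of the 10 tested brakes were called, Dusp6, Spred2 and Spred1 (1.26, adjusted p = 0.0114). Spred1 was at 1.89 and 1.98 FPKM in control and at 4.91 and 4.39 in SUV-OE (0.94, limma adjusted p = 0.0576). Among the MAP kinase cascade genes, 24 of 25 were tested, the median was -0.07 (0.05 without control replicate 3 and -0.19 without control replicate 4), and 4 followed the order within both groups. The largest differences were -0.55 for Rps6ka4 and -0.49 for Rps6ka1, which encode kinases downstream of MAP kinases, and 0.41 for the RAF kinase gene Braf, at limma adjusted p-values of 0.269, 0.260 and 0.165.

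Of the SRF, TCF and CREB regulators, all 14 were tested, the median was 0.14 (0.18 without control replicate 3 and -0.06 without control replicate 4), and 1 followed the order within both groups. The TCF gene Elk3 differed by 0.40, the SRF coactivator gene Mrtfa by -0.26 and the CREB relative Atf1 by -0.24, at limma adjusted p-values of 0.273, 0.526 and 0.437. Srf, which is itself an immediate-early gene, was at 60.0 and 42.3 FPKM in control and at 45.7 and 43.7 in SUV-OE.

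Relatives of the set were followed in 4 lists. Of 14 other AP-1 and ATF bZIP genes, 12 were tested, with 8 lower and 4 higher in SUV-OE and a median of -0.13, which was 0.06 without control replicate 3, with 5 lower and 7 higher, and -0.34 without control replicate 4. Maff differed by -0.64, Jdp2, an AP-1 repressor gene, by -0.56 and Batf by -0.50, at limma adjusted p-values of 0.316, 0.295 and 0.184. Atf3, a stress-induced member, was at 3.20 and 0.495 FPKM in control and at 0.785 and 1.41 in SUV-OE. Of the other Egr genes and NAB corepressors, 4 of 5 were tested, with a median of 0.15, which was 0.42 without control replicate 3 and -0.08 without control replicate 4. Nab2, an Egr1 target and corepressor, was at 1.05 and 0.866 FPKM in control and at 1.69 and 2.05 in SUV-OE (0.55, limma adjusted p = 0.167). Its difference was 0.95 by limma-voom (adjusted p = 0.102) and 0.89 with a pseudocount of 0.1. Egr3 was at 0.944 and 0.377 FPKM in control and at 0.0796 and 2.07 in SUV-OE.

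Of 13 other KLF genes listed, 12 were in the table and 11 were tested, with a median of 0.11, which was 0.20 without control replicate 3 and -0.15 without control replicate 4. Klf2, a factor of quiescent blood and endothelial cells with the same order of libraries as Jun, was at 292 and 41.5 FPKM in control and at 7.66 and 43.2 in SUV-OE (log2 fold change -2.51, SE 1.18, limma adjusted p = 0.311). Its difference was -1.12 without control replicate 3, -1.34 without SUV-OE replicate 2 and -3.91 without control replicate 4. Klf1, the erythroid factor, was at 0.972 and 0.927 FPKM in control and at 3.42 and 2.46 in SUV-OE (1.0, limma adjusted p = 0.0840, and 1.59 by limma-voom, adjusted p = 0.0454). Klf8 was at 1.06 and 1.23 FPKM in control and at 0.455 and 0.421 in SUV-OE (-0.57, limma adjusted p = 0.162, and -1.36 by limma-voom, adjusted p = 0.0413), and its difference was -1.21 with a pseudocount of 0.1. All 4 other BTG and TOB genes, relatives of Btg2, were tested, and their differences ran from -0.10 (Tob2) to 0.18 (Btg1), with all 4 higher in control replicate 3 than in replicate 4. Their median of 0.04 was 0.43 without control replicate 3 and -0.37 without control replicate 4.

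**Figure D5:**
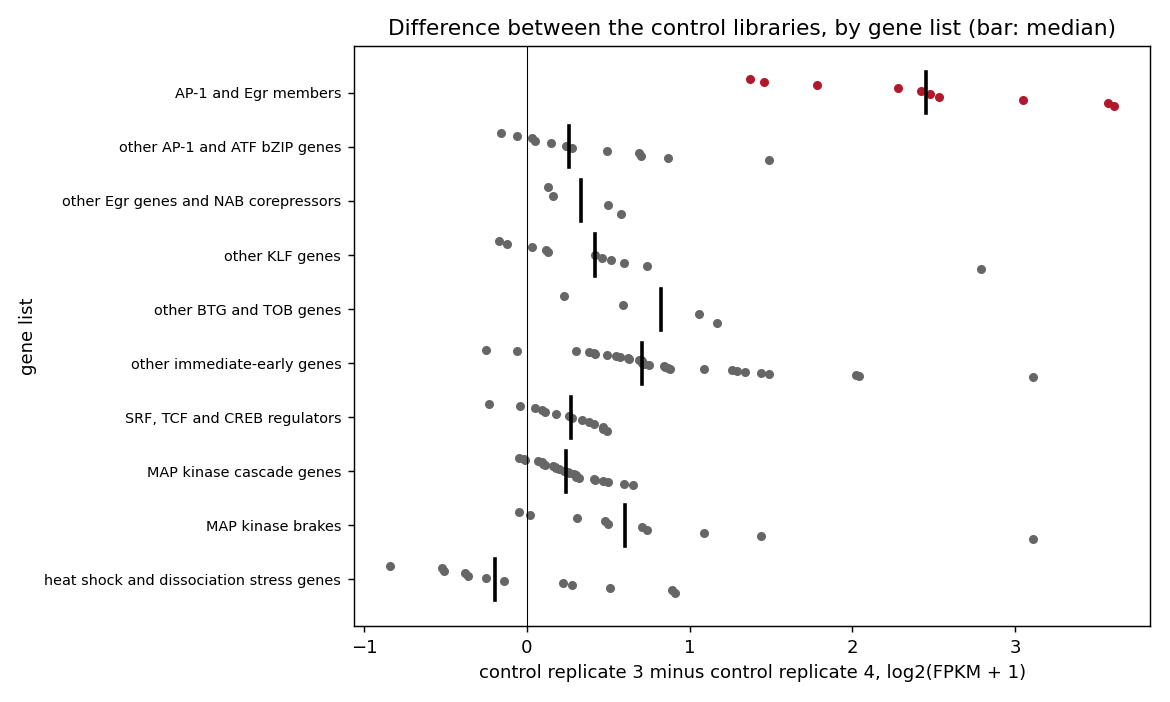
Control replicate 3 minus control replicate 4 on log2(FPKM + 1) for each tested gene of the 9 pathway lists and, in red, for the 10 genes of the set, with a bar at each median. The median is 2.45 for the set, 0.71 for the other immediate-early genes, 0.24 for the MAP kinase cascade genes and -0.19 for the heat shock genes.

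Several cell type markers were lowest in control replicate 3, where the set was highest. The median of SUV-OE replicate 3 minus replicate 2 was 0.12 for neutrophil, -0.08 for monocyte and macrophage, -0.36 for erythroid and 0.99 for B cell markers. Neutrophil markers summed to 729 and 2340 FPKM in control and to 6540 and 7960 in SUV-OE, with all 10 markers lowest in control replicate 3 and all 10 above both controls in both SUV-OE libraries, as 25.4% of all tested genes were. Monocyte and macrophage markers summed to 372 and 661 FPKM in control and to 388 and 421 in SUV-OE, and all 10 were lower in control replicate 3 than in replicate 4. That sum is carried by Ly6c2 (281 and 545 FPKM in control and 229 and 269 in SUV-OE), while the other 9 markers were above both controls in both SUV-OE libraries, against the same 25.4%. Erythroid markers summed to 14.6 and 139 FPKM in control and to 98.2 and 68.5 in SUV-OE.

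The other cell type lists were also at low summed levels in control replicate 3. Summed B cell markers ran from 20.9 in control replicate 3 to 75.7 FPKM in SUV-OE replicate 3, megakaryocyte markers from 6.62 to 28.4, mast cell and basophil markers from 49.7 to 150, endothelial and stromal markers from 18 to 73.0 and T and NK cell markers from 73.8 to 113, and each of these sums was lowest in control replicate 3. Pecam1, which blood cells also express, carried the endothelial and stromal sum (16.7 to 70.3 FPKM) and Nkg7 the T and NK cell sum (73.0 to 112 FPKM). The defining markers Cdh5 and Kdr, and Cd3e, Cd3d and Cd3g, were each under 1 FPKM in every library. No marker was at 0 in all 4 libraries. Heat shock and dissociation stress genes, in contrast, summed to 2130 and 2300 FPKM in control and to 1940 and 2930 in SUV-OE, with 11 of 12 highest in SUV-OE replicate 3 and 1 highest in control replicate 3. Mitochondrially encoded genes held 2.85%, 4.80%, 3.72% and 3.71% of the summed FPKM in the same order of libraries. The part of these markers in the levels of the immediate-early genes was not tested, and in bulk libraries fewer cells of a type and less RNA per cell cannot be told apart.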

How the data were processed

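Total RNA of c-Kit+ cells was sequenced from TruSeq RNA v2 libraries, which do not mark strand. The submitters' processing notes name CASAVA 1.8, TopHat2 and mm10. The deposited values are FPKM, normalized by the authors for gene length and library size, for 23552 genes in each library. The methods name Cufflinks as the source of the FPKM. Cufflinks estimates need not be whole-read multiples, most of the values were such multiples, and which counter made them was not settled. The annotation release is not given in the sources used here.

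The 10 genes and all lists were chosen with earlier results of these data known. FPKM + 1 was log2-transformed, and the 13736 genes averaging 0.5 FPKM or more were compared between groups with limma 3.58.1 in R 4.3.3, moderated with an intensity trend and two-sided. DEGs had a Benjamini-Hochberg adjusted p under 0.05 over all tested genes with a log2 fold change of 1 or more in either direction. The study called DEGs with DESeq2, which needs counts and was not used here. For the genes of the set only counts of calls are given, and nothing rests on them.

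Reads were recovered from the FPKM steps at GENCODE M21 exon lengths. For 78.6% of genes all values came out whole within a tolerance of 0.01, as they did for 7 of the 10 genes of the set, not for Junb, Jund and Klf6. The recovered reads summed to 20085719 to 23561089 per library. In every library this sum was above the library size by which the FPKM steps are scaled, so it is not a library total. SUV-OE replicate 2 was the smallest library by the sum, and control replicate 4 by the scaling size. The cause was not tested. limma-voom on these reads, for genes with a mean of at least 10, was an alternative. The recovery, the limma fit and limma-voom were each tested on simulated data. The simulated reads were whole by design, so the test of the recovery cannot show that the FPKM steps are whole reads. For the fits, the simulated libraries of a group varied far less than these libraries did for the genes of the set. The recovered reads, limma-voom and the Poisson intervals of Klf4 assume that the steps are whole reads. The other alternatives were a pseudocount of 0.1, a mean FPKM of at least 1, no filter, quantile normalization, median-of-ratios scaling, no trend, an adjusted p under 0.1, no fold change threshold and leaving out each library.

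Genes named beside the set were Suv39h1, the 3 tested genes of each pathway list with the largest absolute log2 fold change and any DEG of it, and the 8 genes most like the set. Atf3, Rhob, Srf, Spred1, Dusp16 and the single cell type markers given with values were named after their values were seen. Positions came from GENCODE M21 (mm10).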

Additional observations from a re-analysis of the deposited data

How the results depend on the processing

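The count of DEGs was 168 (112 higher and 56 lower in SUV-OE). It was 669 (514 higher, 155 lower) by limma-voom on the recovered reads, 342 (249 and 93) at an adjusted p under 0.1, 0 without a filter on low values, and 0 in each of the fits that left out 1 library, where the group with the lone library adds no spread of its own and is assumed to vary like the other. Among the other pathway genes the count of 0 became 7 (6 higher, 1 lower) by limma-voom, 1 of them (Dusp16) outside the 117 genes tested by limma, and 2 (both higher) at an adjusted p under 0.1. The median difference of the 10 immediate-early genes was -1.22, -1.42 by limma-voom, between -1.41 and -1.22 under the other scalings, pseudocount and filters, and from -2.45 to 0.00 when 1 library was left out, with 0.00 without control replicate 3. Egr3, at 0.15, became -0.57 by limma-voom, -0.18 with a pseudocount of 0.1, and ran from -0.60 (without SUV-OE replicate 3) to 0.91 over the fits that leave out 1 library, with -0.10 without control replicate 4. Egr2, at 0.15, ran from -0.26 to 0.56 over those fits, with -0.14 without control replicate 4, and Btg1, at 0.18, from -0.34 to 0.71, with -0.05 without SUV-OE replicate 3. Tob1, at 0.08, ran from -0.50 (without control replicate 4) to 0.67. Tob2, at -0.10, became 0.03 by quantile normalization and ran from -0.39 to 0.20 (without control replicate 3), with 0.05 without SUV-OE replicate 3. Without control replicate 3, Maff came to -0.21, Jdp2 to -0.21, Rps6ka4 to -0.25, Rps6ka1 to -0.26, Mrtfa to -0.07 and Atf1 to -0.07, and without SUV-OE replicate 2 Elk3 came to 0.22. Suv39h1 kept its direction, at 2.51 to 2.62 and limma adjusted p-values of 0.0975 to 0.186 with 1 library left out and 0.109 without a filter. The causes were not tested. No paired analysis was possible because a single replicate number is common to both.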

Other observations

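The inducible heat shock genes were highest in SUV-OE replicate 3. Hspb1, a small heat shock protein gene, was at 0.150 and 0.632 FPKM in control and at 0.601 and 5.56 in SUV-OE. Hspa1a, an inducible HSP70 gene, was at 1.37 and 0.260 FPKM in control and at 5.62 and 77.4 in SUV-OE (log2 fold change 3.72, limma adjusted p = 0.190). Hspa1b, its near-identical neighbour, was at 2.29 and 0.782 FPKM in control and at 18 and 166 in SUV-OE (4.54, limma adjusted p = 0.125), and reads may have been split between the pair. Without SUV-OE replicate 3 the differences were 1.94 for Hspa1a, 2.97 for Hspa1b and 0.23 for Hspb1, which was at 1.24 with all libraries. Without SUV-OE replicate 2 they were 5.5, 6.11 and 2.26. With all libraries the difference of Hspb1 was 2.5 by limma-voom and 2.22 with a pseudocount of 0.1. By limma 0 of the 12 heat shock genes tested were DEGs, against 1.22% of all tested genes. The unadjusted p from limma was under 0.05 in 2 (16.7%), against 20.7% of all tested genes. By limma-voom 0 were called, against 516 of the 12630 tested genes it covered.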
